A study of Rattus norvegicus with 6 samples.

Results

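Messenger RNA of 9 rat genes that bind, make, break down or sense retinoic acid was followed through 3 samples of Schwann cell precursors (SCPs) and 3 samples of repair Schwann cells (RSCs). The genes were Crabp1, Crabp2 and Rbp4 (binding), Aldh1a1, Aldh1a2 and Aldh1a3 (synthesis), Cyp26b1 (breakdown), and Rara and Rarb (receptors). They were 9 of the 29468 gene symbols in the tables. They were chosen on their measured SCP and RSC values in these same samples, so their differences between the groups are given as a description, without a test. The level of a gene was the sum of the FPKM of its named transcripts in each sample. FPKM counts sequenced fragments relative to transcript length and library size, so levels of different genes can be compared per length.

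SCPs are the glial cells of the embryonic nerve, and were taken from the sciatic nerves and brachial plexus of rat embryos at embryonic day 14 without treatment. RSCs are the Schwann cells of an injured adult nerve, and came from the sciatic nerve distal to a cut, in rats of 10 weeks of age and 1 week after the cut. The strain was LEWIS. The labels give the genotype as wild type, whereas the methods describe grafted cells prepared in the same way from LEWIS rats carrying a red fluorescent protein transgene, and which of these the sequenced cells were is not settled by these sources. The study's methods also describe a plating step to remove adherent cells such as fibroblasts and macrophages. The groups thus differed in age, nerve, injury and enzyme treatment at once, and the parts of these in any difference cannot be told apart. The study's reporting summary counts 3 separately prepared sets of cells in each group, but neither it nor the labels say whether the sets came from separate litters or animals, so p-values measure the spread between these preparations.

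Retinol reaches cells bound to the carrier RBP4 and enters through the receptor STRA6. RDH10 oxidises it to retinaldehyde, DHRS3 carries out the reverse step, and the retinaldehyde dehydrogenases encoded by Aldh1a1, Aldh1a2 and Aldh1a3 turn retinaldehyde into retinoic acid. CRABP1 and CRABP2 bind retinoic acid in the cytoplasm, CYP26 enzymes degrade it, and receptors of the RAR family act on it in the nucleus, paired with an RXR, at repeated half-sites in DNA. In the embryo this pathway patterns the hindbrain, trunk and limbs, and it is also active in adult tissues during repair.

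All 9 genes were detected, and each averaged 1 FPKM or more across the samples. Named transcripts placed 4 of the 9 entirely higher in SCPs, which were Crabp1, Crabp2, Aldh1a2 and Rara. They placed 2 entirely higher in RSCs, which were Rbp4 and Aldh1a1. Of all 13003 genes with at least 1 FPKM, 33.7% lay entirely higher in SCPs and 24.9% entirely higher in RSCs, and nothing is read from the members' counts because this contrast chose them. The samples of the other members, Aldh1a3, Cyp26b1 and Rarb, overlapped. The median log2 difference (RSC minus SCP, log2 of FPKM + 1) was -0.59 over the 9 members and -0.17 over all 13003 genes. Scaling by the median of ratios moved the latter to 0.020, a shift of 0.19. The difference relative to the median gene is therefore given for Crabp2 below. It was -0.70 for Aldh1a2, 0.89 for Cyp26b1 and -0.23 for Rarb.

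**Figure D1:**
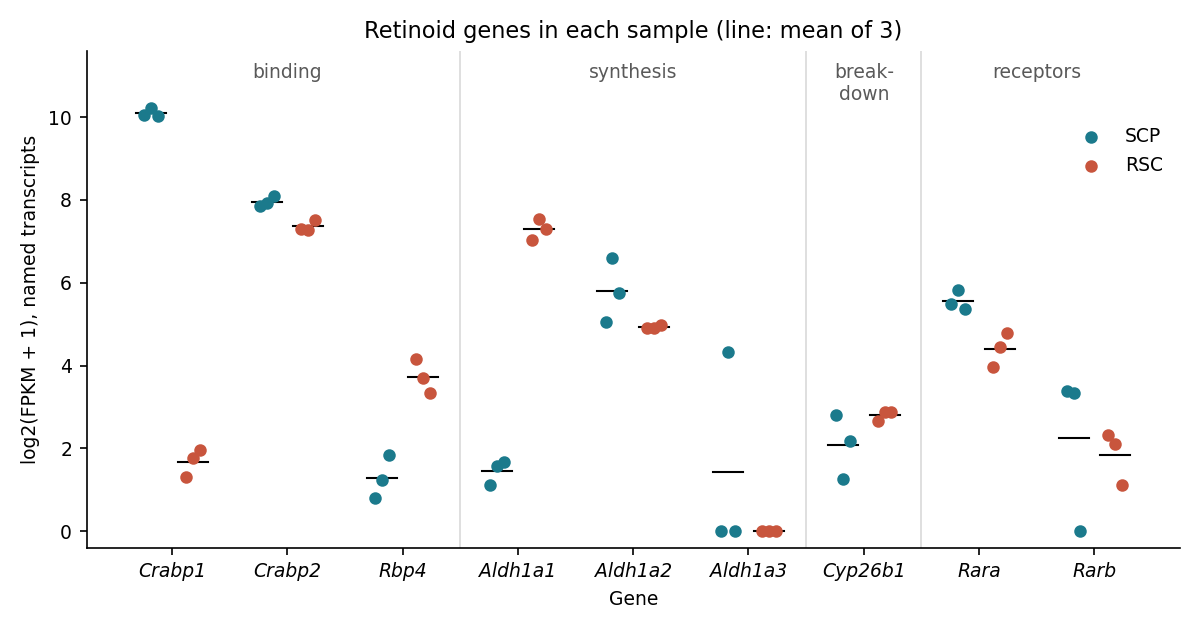
Level of the 9 genes in each sample, as log2(FPKM + 1) of named transcripts, with 3 SCP samples (teal), 3 RSC samples (red) and a line at the mean of each group. Crabp1 was the highest member in SCPs and near the bottom in RSCs, Aldh1a1 ran the other way, and Aldh1a3 and Rarb include samples listed at 0.

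The promoters of the members with the largest differences, and of Crabp2 for contrast with Crabp1, show how unlike these genes are in base composition. The sequences are from RefSeq, build GRCr8, whose coordinates differ from those of the deposited tables on rn6, and all 9 members matched by symbol. Each line gives the 250 bases before the annotated start on the plus strand. Capitals mark the GC box GGGCGG, the TATA box TATAAA and the CCAAT box, on either strand.
Crabp1, chr8:64047181-64047430: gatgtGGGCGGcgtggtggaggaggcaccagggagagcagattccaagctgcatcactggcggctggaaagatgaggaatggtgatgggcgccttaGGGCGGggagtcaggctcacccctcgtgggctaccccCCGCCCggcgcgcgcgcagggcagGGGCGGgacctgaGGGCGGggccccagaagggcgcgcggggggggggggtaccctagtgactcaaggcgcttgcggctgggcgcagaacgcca
Crabp2, chr2:175714612-175714861: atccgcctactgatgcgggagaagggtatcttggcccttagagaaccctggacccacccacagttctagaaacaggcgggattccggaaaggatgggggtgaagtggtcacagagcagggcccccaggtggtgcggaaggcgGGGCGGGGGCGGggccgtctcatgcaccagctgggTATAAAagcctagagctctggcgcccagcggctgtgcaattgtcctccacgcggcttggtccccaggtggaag
Aldh1a1, chr1:227537370-227537619: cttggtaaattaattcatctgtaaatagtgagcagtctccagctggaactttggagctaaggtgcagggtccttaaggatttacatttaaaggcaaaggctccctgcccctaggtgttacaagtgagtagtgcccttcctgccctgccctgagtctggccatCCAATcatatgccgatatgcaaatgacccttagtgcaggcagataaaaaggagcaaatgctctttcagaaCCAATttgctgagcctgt

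In the window from 250 bases before to 50 bases after the start, Crabp1 had a GC content of 70.7%, 26 CpG dinucleotides and 5 copies of GGGCGG. Aldh1a1 had a GC content of 48.3%, 1 CpG and no GGGCGG, with 2 copies of CCAAT. Crabp2 lay between, at 61.0% GC and 14 CpG, with a TATAAA. The medians over all 33469 rat promoters of this length were 51.7% GC and 7 CpG. GGGCGG was present in 6 of the 9 members and in 33.1% of all promoters, TATAAA in 2 members and 14.2%, CCAAT in 3 members and 37.5%, and the receptor half-site AGGTCA in 0 members and 16.2%. These matches are descriptions of the letters only.

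Rarb is shown separately because its promoter window holds the kind of element that retinoic acid receptors bind, a direct repeat of the half-site with 5 bases between the copies. The 30 bases printed lie 19 to 48 bases after the annotated start, on the plus strand of GRCr8, with the repeat in capitals.
Rarb, chr15:11336410-11336439: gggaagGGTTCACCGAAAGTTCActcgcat
A half-site was AGGTCA or a variant of it with the other purine as the first base or with T as the third, searched on both strands. A repeat spaced by 5 bases was found in 1 of the 9 members and in 0.382% of all promoters. Repeats spaced by 2 bases (0.17% of all promoters) or by 1 base (0.233%) were found in no member. A repeat can contain AGGTCA, although the one in Rarb does not.

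Among the binding proteins, Crabp1 had the widest gap of the 9 genes and Crabp2 a narrow one. Crabp1 (chromosome 8 from 59344097 to 59352135 on rn6, 1 transcript of 755 bases) had an FPKM of 1055, 1196 and 1041 in SCP replicates 1, 2 and 3. Its FPKM in RSC replicates 1, 2 and 3 was 1.49, 2.41 and 2.91. The groups did not overlap, and the mean was 1097 ± 85.7 in SCPs and 2.27 ± 0.723 in RSCs (SD, n = 3 each), 483-fold higher in SCPs and -8.41 on the log2(FPKM + 1) scale. Adding 1 before the logarithm understates this difference, and with 0.1 in its place it was -8.90. Crabp1 ranked 81 of 13003 genes by mean FPKM in SCPs and 10559 in RSCs. The RSC level was low but above 0, with a Cufflinks interval of 0.277 to 2.50 FPKM in RSC replicate 1.

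Crabp2 (chromosome 2 from 184882970 to 184883457) was abundant in both groups. Its FPKM was 231, 241 and 272 in the SCP samples. In the RSC samples it was 157, 153 and 183, with no overlap between the groups. The means were 248 ± 21.1 and 164 ± 16.1 FPKM (SD, n = 3 each), a ratio of 1.51 and a log2 difference of -0.59. Relative to the median gene this was -0.42, and -0.40 after median-of-ratios scaling. The deposited Crabp2 model spans 488 bases and holds 299 bases of transcript, and in every sample the FPKM lay above the interval that Cufflinks gave for it, for example 70.1 to 106 in SCP replicate 1. Such disagreement was found in 36.2% to 52.4% of expressed transcripts under 300 bases and in 3.01% to 3.40% of all expressed transcripts, so the level of Crabp2 is uncertain. The estimate of Crabp1 also lay above its interval of 755 to 827 in SCP replicate 3.

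The balance between the CRABP genes was inverted. Crabp1 made up 82.0%, 83.2% and 79.3% of the summed CRABP FPKM in the SCP samples (81.5% ± 2.01, SD, n = 3). In the RSC samples it made up 0.938%, 1.55% and 1.57% (1.35% ± 0.358), with Crabp2 as the rest. The summed FPKM of the pair was 1345 ± 80.4 in SCPs and 167 ± 16.6 in RSCs. These shares inherit the uncertainty in the level of Crabp2.

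Rbp4 (chromosome 1 from 256806476 to 256813678), the carrier of retinol in blood that is made mainly by the liver and also by adipocytes, was the binding gene that was higher in RSCs. Its FPKM was 0.733, 1.36 and 2.58 in the SCP samples. It was 16.8, 11.9 and 9.18 in the RSC samples, and the groups did not overlap. The mean was 8.10-fold higher in RSCs, with a log2 difference of 2.44. The liver and plasma protein genes summed to 0.938 to 1.45 FPKM in SCPs and 0 to 1.25 in RSCs, and Alb and Ttr were listed at 0 in all 3 RSC samples. The 5 adipocyte genes summed to 119 to 204 FPKM in RSCs against 1.82 to 3.42 in SCPs. Within that list Cfd reached 98.9 to 180 FPKM and Fabp4 14.6 to 20.6 in RSCs, while Adipoq and Plin1 were at or below 0.171 FPKM in all 6 samples. The part of adipocytes or of any other source in the Rbp4 level was not tested.

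The 3 retinaldehyde dehydrogenase genes exchanged places. Aldh1a1 dominated in RSCs, and Aldh1a2, with Aldh1a3 where unnamed transcripts were counted, dominated in SCPs. Aldh1a1 (chromosome 1 from 238222689 to 238264381) had an FPKM of 1.18, 1.96 and 2.21 in SCP replicates 1, 2 and 3. In RSC replicates 1, 2 and 3 it had 131, 185 and 155. The groups stood far apart, with a mean of 1.78 ± 0.533 and 157 ± 27.1 FPKM (SD, n = 3 each), 88.1-fold higher in RSCs and 5.83 on the log2(FPKM + 1) scale. Aldh1a1 ranked 485 of 13003 genes in RSCs and 10930 in SCPs.

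Aldh1a2 (chromosome 8 from 77640234 to 77719488) encodes the main embryonic source of retinoic acid. Its FPKM was 31.9, 95.0 and 53.1 in the SCP samples, uneven across samples. It was even in the RSC samples, at 28.9, 29.1 and 30.4. The lowest SCP sample lay just above the highest RSC sample. The means were 60.0 ± 32.1 and 29.4 ± 0.818 FPKM, with a log2 difference of -0.87, which was -0.47 without SCP replicate 2 and -1.24 without SCP replicate 1. Unnamed transcripts covering the same locus added 12.2 FPKM in SCP replicate 1, 11.0 in SCP replicate 3 and 3.86 in RSC replicate 2. With them the SCP samples reached 44.1, 95.0 and 64.1 FPKM against 28.9, 32.9 and 30.4 in the RSC samples, a log2 difference of -1.05.

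Aldh1a3 (chromosome 1 from 127302920 to 127337828) can hardly be read from its named transcript. That transcript was listed at 18.9 FPKM in SCP replicate 2 and at 0 in the other 5 samples, and Cufflinks gave it the status LOWDATA in all 6. Its difference therefore rested on SCP replicate 2 alone. Unnamed transcripts that Cufflinks assembled over the locus held 30.3 FPKM in SCP replicate 1 and 36.2 in SCP replicate 3. They held 14.9, 11.1 and 14.5 FPKM in the RSC samples. SCP replicate 2 had a further 3.93 and 3.42 FPKM in unnamed transcripts that run from Lrrk1 into Aldh1a3. With every unnamed transcript at the locus the SCP samples stood at 30.3, 26.3 and 36.2 FPKM, all above the RSC samples, with a log2 difference of -1.14. Without those that reach Lrrk1 the difference was -0.99.

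Counted with the unnamed transcripts, the 3 genes summed to 75.6, 123 and 103 FPKM in SCP replicates 1, 2 and 3. The RSC sums were 175, 229 and 200 FPKM. Aldh1a1 held 1.77% ± 0.332 of this sum in SCPs and 77.7% ± 2.93 in RSCs (SD, n = 3 each). Aldh1a2 held 66.0% ± 9.84 and 15.4% ± 1.09, and Aldh1a3 32.2% ± 9.76 and 6.89% ± 1.87. With named transcripts alone Aldh1a1 held 3.08% ± 1.23 and 84.0% ± 2.27. The inversion was thus present under both ways of counting, while the share of Aldh1a3 depended on the unnamed transcripts.

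**Figure D2:**
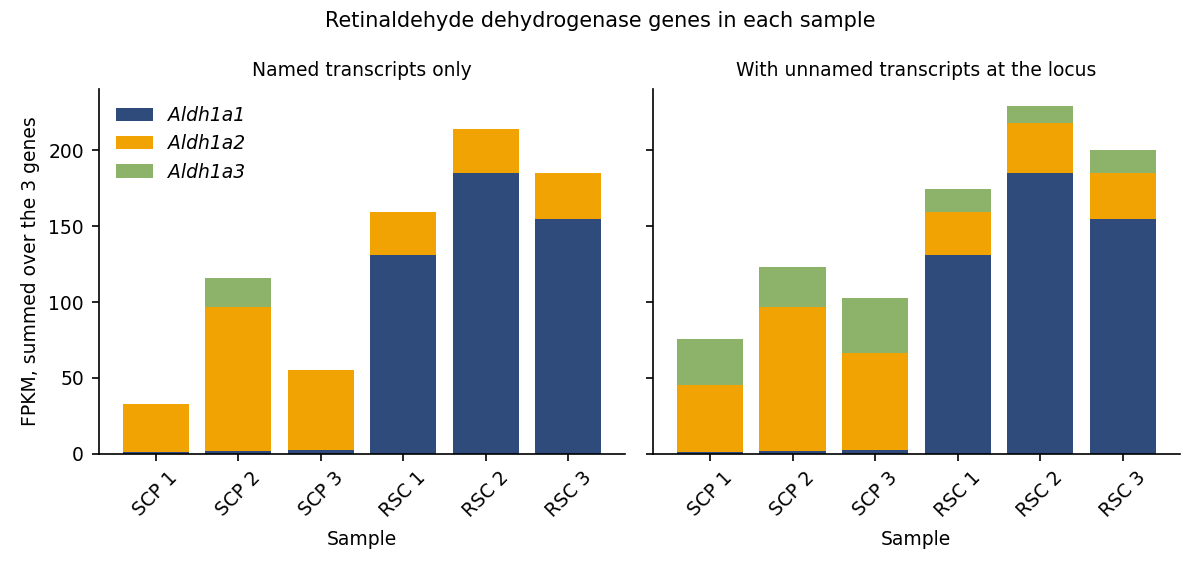
FPKM of Aldh1a1, Aldh1a2 and Aldh1a3 stacked in each of the 6 samples, from named transcripts (left) and with every unnamed transcript at the locus (right). Aldh1a1 fills most of each RSC bar and almost none of any SCP bar, and Aldh1a3 appears in 1 sample on the left and in all 6 on the right.

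Fibroblasts and other mesenchymal cells can also express retinaldehyde dehydrogenases, and their markers did not all move in the same direction. The 8 fibroblast and mesenchyme genes summed to 681 to 1041 FPKM in SCPs and to 5369 to 8027 in RSCs. Of these 8, limma at p under 0.01 placed 5 higher in RSCs and 1, Twist2, higher in SCPs. Of all genes tested it placed 18.1% higher in RSCs and 22.4% higher in SCPs. Prrx1 was lower in RSCs without passing, at a log2 difference of -1.07. With unnamed transcripts 5 of the 8 passed on the RSC side and 2, Twist2 and Prrx1, on the SCP side. Of all genes 23.2% and 34.2% then passed on these sides. Dcn reached 1175 to 2697 FPKM in RSCs and 8.60 to 23.9 in SCPs. Pdgfra, a surface marker of fibroblasts, was at 41.7 to 47.0 FPKM in SCPs and 47.6 to 61.3 in RSCs. In these bulk samples fewer cells of a type and less RNA per cell cannot be told apart, and the part of such cells in the levels of the members was not tested.

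Cyp26b1 (chromosome 4 from 116261796 to 116278615), an enzyme that degrades retinoic acid, was low in all samples. Its FPKM was 6.0, 1.41 and 3.49 in the SCP samples. The RSC samples had 5.29, 6.34 and 6.35. The highest SCP sample lay within the RSC range, and the log2 difference was 0.72. SCP replicate 2 set much of it, since without that sample it was 0.31. The 3 unnamed transcripts at the locus, found only in SCP replicate 2, raised that sample to 5.80 FPKM and brought the difference to 0.22. The other members of the family were lower still. Cyp26a1 ranged from 0.249 to 1.05 FPKM and Cyp26c1 from 0.0354 to 0.197 over the 6 samples, and Cyp26b1 made up 75.3% ± 18.3 of the family's named FPKM in SCPs and 89.7% ± 4.75 in RSCs.

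Rara was the more abundant receptor of the pair and was higher in SCPs, while Rarb was low and uneven. Rara (chromosome 10 from 86861031 to 86884224) had an FPKM of 43.7, 56.1 and 40.3 in the SCP samples. It had 14.7, 21.0 and 26.7 in the RSC samples, without overlap, and the mean was 2.25-fold higher in SCPs, with a log2 difference of -1.16. Cufflinks marked both of its named transcripts LOWDATA in all 6 samples and placed part of the expression in unnamed ones. With these the SCP samples stood at 71.1, 64.9 and 75.9 FPKM and the RSC samples at 33.3, 32.9 and 34.2. The replicates then lay closer together in RSCs, with an SD of 0.672 in place of 5.98 FPKM, at a similar log2 difference of -1.05. The longer named transcript, XM_008767945.1, had 18.7 and 26.6 FPKM in SCP replicates 1 and 2 and was listed at 0 in SCP replicate 3.

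Rarb (chromosome 15 from 10120206 to 10262599), the receptor gene whose promoter window holds the repeat shown above, had an FPKM of 9.50 and 9.05 in SCP replicates 1 and 2. In SCP replicate 3 it was listed at 0, with no unnamed transcript at the locus and with the status OK. The RSC samples had 3.97, 3.29 and 1.18 FPKM. The direction of its difference therefore depended on which SCP samples were counted. The log2 difference was -0.39 with all samples and -1.51 without SCP replicate 3. It turned to 0.18 without SCP replicate 1, to 0.15 without SCP replicate 2 and to 0.34 with a pseudocount of 0.1. Rarg, the third receptor gene of the family and no member here, was at 19.1, 25.7 and 20.0 FPKM in SCPs and 12.6, 19.5 and 15.9 in RSCs, and its difference of -0.42 did not pass p under 0.01 (limma, adjusted p = 0.132). Rara held 68.1% ± 6.17 of the FPKM of the 3 RAR genes in SCPs and 58.1% ± 2.95 in RSCs, unnamed transcripts included.

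**Figure D3:**
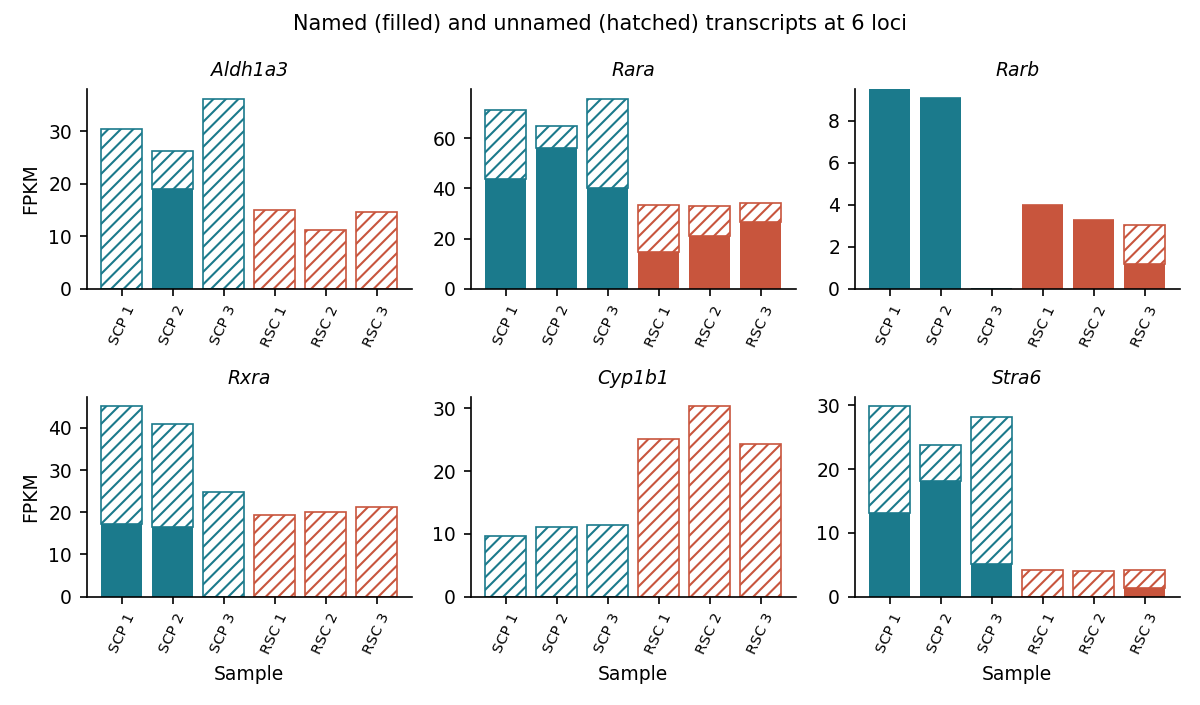
FPKM at 6 loci in each sample, with named transcripts filled and unnamed transcripts hatched, for SCP (teal) and RSC (red) samples. At Aldh1a3, Cyp1b1 and Rxra most of the signal is hatched, and at Rarb SCP replicate 3 has neither kind.

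Around the members, 44 other genes of retinoid metabolism and reception were listed by hand from general knowledge, 42 of them were in the tables and 20 reached 1 FPKM. At the study's threshold of an unadjusted p under 0.01, limma placed 5 of these 20 on the SCP side and 5 on the RSC side. Over all 13003 genes, 22.4% passed on the SCP side and 18.1% on the RSC side. A further requirement of a 4-fold difference left 1 gene on either side, where 3.78% of all genes passed on the SCP side and 7.81% on the RSC side. The median log2 difference of the 20 genes was -0.053. The number on the SCP side was 3 after median-of-ratios scaling or without SCP replicate 1, RSC replicate 2 or RSC replicate 3, and the number on the RSC side was 3 without RSC replicate 3. With unnamed transcripts added 8 passed on the SCP side and 6 on the RSC side. The genes then tested were 3 carriers, 7 of interconversion, 4 of storage, 1 of breakdown and 7 receptors. Over the 14019 genes then tested 34.2% passed on the SCP side and 23.2% on the RSC side.

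Of the 3 genes tested for uptake and intracellular carriage, 2, Stra6 and Rlbp1, passed on the SCP side, and Fabp5 did not pass. Of all genes 22.4% passed on that side. In the fit with unnamed transcripts Fabp5 passed too, at a log2 difference of -0.40 (limma adjusted p = 0.0142), where 34.2% of all genes passed on the SCP side. Stra6, the receptor that takes retinol from RBP4, had 13.1, 18.1 and 5.09 FPKM in SCPs, and in RSCs it was listed at 0 in replicates 1 and 2 and at 1.35 in replicate 3. The log2 difference of Stra6 was -3.15 (SE 0.56, adjusted p = 0.00528). With the unnamed transcripts of its locus Stra6 stood at 23.8 to 29.9 FPKM in SCPs and at 4.01 to 4.17 in RSCs. Rlbp1, which carries retinaldehyde in the eye, was low, at 1.81 to 2.61 FPKM in SCPs and 0 to 0.400 in RSCs, with a log2 difference of -1.46 (adjusted p = 0.00479). Rbp4, the ligand of STRA6, thus stood on the other side of the comparison from its receptor gene.

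Of all genes 18.1% passed on the RSC side and 22.4% on the SCP side, or 23.2% and 34.2% with unnamed transcripts. Of 7 genes tested that interconvert retinol and retinaldehyde, 4 passed on the RSC side and 1 on the SCP side. With unnamed transcripts 3 passed on the RSC side and 2 on the SCP side, since Rdh11 dropped out and Rdh13, named after its values were seen, was then higher in SCPs (log2 difference -0.89, limma adjusted p = 0.00124). Rdh10, which makes retinaldehyde, had 8.66, 9.61 and 10.0 FPKM in SCPs and 36.3, 52.6 and 39.9 in RSCs, a log2 difference of 2.06 (SE 0.16, adjusted p = 0.000266). Dhrs3, which reduces retinaldehyde back to retinol, had 9.07, 16.5 and 13.6 FPKM in SCPs and 34.4, 46.5 and 63.4 in RSCs, a log2 difference of 1.80 (SE 0.29, adjusted p = 0.00399). Rdh10 and Dhrs3, which act in opposite directions, were thus both higher in RSCs.

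Aldh1a7, a close paralog of Aldh1a1 in rodents, was at 0 to 0.0890 FPKM in SCPs and 1.50 to 2.90 in RSCs (log2 difference 1.65, adjusted p = 0.00348). How Cufflinks divided reads shared by these paralogs is not stated, so the value of Aldh1a7 is uncertain beside the much higher Aldh1a1. Rdh11 was higher in RSCs by 0.72 (adjusted p = 0.0146), but by 0.25 and below the threshold with unnamed transcripts. Dhrs4 was higher in SCPs, by -0.79 on the scale of RSC minus SCP (adjusted p = 0.0117), and fell short after median-of-ratios scaling, at -0.60. Rdh11 also fell short without SCP replicate 1 (0.62), SCP replicate 2 (0.74), RSC replicate 1 (0.66) or RSC replicate 3 (0.66), and Dhrs4 without SCP replicate 1 (-0.67), SCP replicate 2 (-0.80), RSC replicate 2 (-0.81) or RSC replicate 3 (-0.71).

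Of the 3 storage and carotenoid genes tested, Retsat, which saturates retinol, passed. Its named transcripts stood at 27.6, 27.0 and 26.4 FPKM in SCPs and 86.1, 74.4 and 84.4 in RSCs, with a log2 difference of 1.56 (SE 0.089, adjusted p = 8.12e-05). Lrat, which forms retinyl esters for storage, stayed under the filter, at 0 to 0.0312 FPKM in SCPs and 1.07 to 1.34 in RSCs. None of the 3 other breakdown genes reached the filter, and Cyp1b1, which can oxidise retinol, was listed at 0 throughout although unnamed transcripts at its locus held 9.69 to 11.5 FPKM in SCPs and 24.3 to 30.3 in RSCs.

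Among the 7 other receptor genes, all tested, 2 were higher in SCPs and none in RSCs, where 22.4% and 18.1% of all genes passed. Rxrg, an RXR gene, had 14.7, 16.1 and 26.0 FPKM in SCPs and 6.01, 4.58 and 5.82 in RSCs (log2 difference -1.59, SE 0.25, adjusted p = 0.00318). Nr2f1, an orphan receptor, had 59.1, 73.4 and 53.7 FPKM in SCPs and 42.4, 39.2 and 42.1 in RSCs (log2 difference -0.57, adjusted p = 0.0148). The call of Nr2f1 was lost after median-of-ratios scaling, at -0.36, and without SCP replicate 1 (-0.60) or any of RSC replicates 1 (-0.59), 2 (-0.53) and 3 (-0.58). Rxra was named after its values were seen, since its named transcript was listed at 17.2, 16.5 and 0 FPKM in SCPs and at 0 in all RSC samples. With unnamed transcripts Rxra stood at 45.1, 41.0 and 24.8 FPKM in SCPs and 19.3, 20.1 and 21.2 in RSCs, a log2 difference of -0.80 (SE 0.22, limma adjusted p = 0.0165). The summed FPKM of the 3 RXR genes was then 80.3 ± 5.61 in SCPs and 41.5 ± 1.91 in RSCs (SD, n = 3 each).

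**Figure D4:**
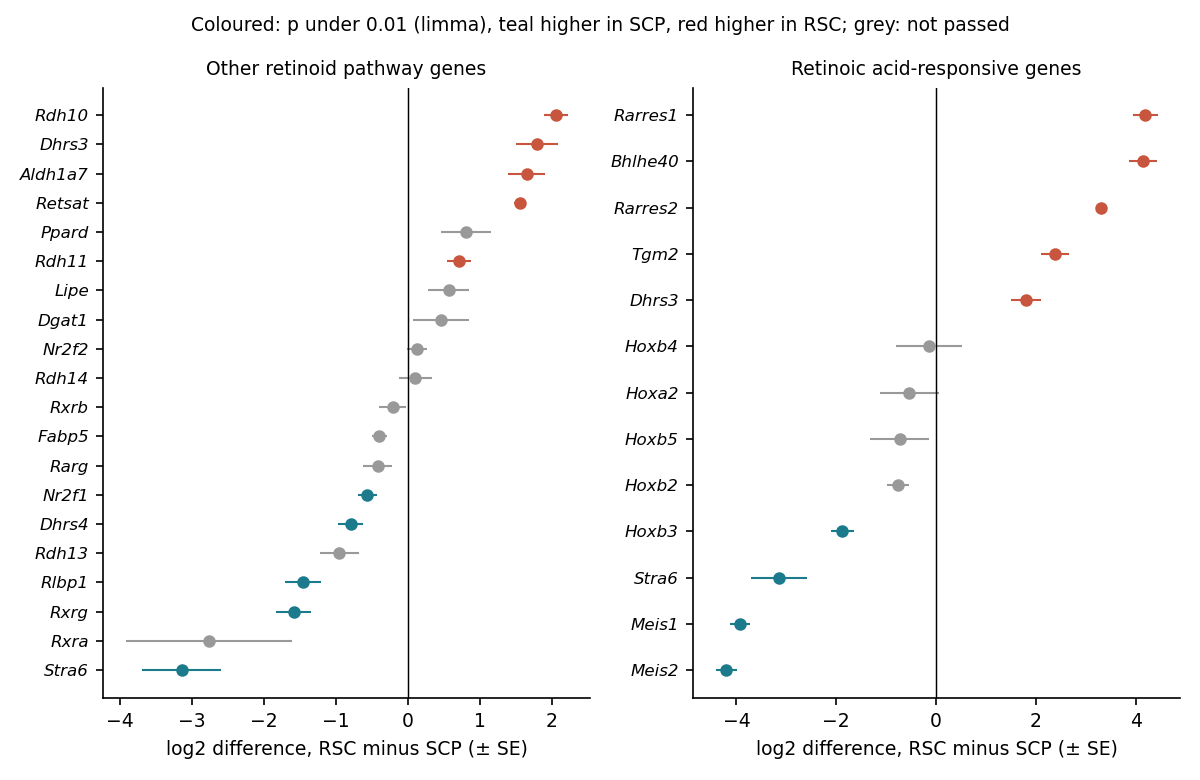
Log2 difference (RSC minus SCP, log2 of FPKM + 1) of the other retinoid pathway genes (left, 20 tested) and of the retinoic acid-responsive genes (right, 13 tested), with bars of 1 standard error from limma. Stra6 and Rxrg lie on the SCP side and Rdh10 and Dhrs3 on the RSC side, and Rxra carries the widest bar on the left.

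At p under 0.01, limma placed 22.4% of all genes on the SCP side and 18.1% on the RSC side. Of 13 receptor co-regulator genes tested, 2 were higher in SCPs and 0 in RSCs. They were the acetyltransferase gene Crebbp, at 21.0 ± 1.90 FPKM in SCPs and 9.21 ± 2.31 in RSCs (SD, n = 3 each, log2 difference -1.13, adjusted p = 0.00490), and the repressor scaffold gene Sin3a, at 17.8 ± 3.72 and 9.17 ± 1.58 (-0.88, adjusted p = 0.0140). The call of Sin3a was lost under median-of-ratios scaling (-0.68), and without SCP replicate 1 (-0.73), SCP replicate 3 (-0.88), RSC replicate 2 (-0.81) or RSC replicate 3 (-0.82). With unnamed transcripts 9 of the 14 co-regulators then tested passed, all higher in SCPs, where 34.2% of all genes passed on that side. The number of co-regulators thus depended on how transcripts were counted. The median log2 difference of the 13 genes was -0.57.

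Genes known to respond to retinoic acid did not move in a single direction. Of 13 tested, limma placed 4 on the SCP side and 5 on the RSC side, where 22.4% and 18.1% of all genes passed. Over 4-fold were 3 and 4 of these, where 3.78% and 7.81% of all genes passed. With unnamed transcripts 15 were tested, of which 8 passed on the SCP side and 5 on the RSC side. Of all genes 34.2% and 23.2% then passed. Meis2 and Meis1, homeobox genes of the embryonic trunk and limb, led the SCP side. Meis2 had 64.9, 49.1 and 37.3 FPKM in SCPs and 1.72 to 1.74 in RSCs (log2 difference -4.20, SE 0.22, adjusted p = 6.18e-05). Meis1 had 45.7, 35.6 and 28.5 FPKM in SCPs and 1.29 to 1.59 in RSCs (-3.93, SE 0.20, adjusted p = 6.22e-05). The gene Stra6, described above, belongs to both lists, as do Dhrs3 on the RSC side and Cyp26a1, which was not tested. Of the 5 Hox genes tested 1 passed, Hoxb3, which was named after its values were seen and had 12.7, 9.86 and 9.48 FPKM in SCPs and 2.31, 2.77 and 1.50 in RSCs (-1.88, SE 0.23, adjusted p = 0.00126). With unnamed transcripts 5 of the 7 Hox genes then tested passed, all higher in SCPs, which were Hoxa2, Hoxb2, Hoxb3, Hoxd3 and Hoxd4. Hoxd3, which had the largest of these differences, stood at 5.49, 5.90 and 4.48 FPKM in SCPs and was listed at 0 in all RSC samples.

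On the RSC side Rarres1, a retinoid-induced membrane protein, had 0.911, 0.283 and 0.160 FPKM in SCPs and 21.5, 26.1 and 27.3 in RSCs (log2 difference 4.19, SE 0.25, adjusted p = 8.98e-05). Bhlhe40, a transcription factor of the clock and stress responses, had 0.632, 1.77 and 0.832 FPKM in SCPs and 34.7, 27.1 and 43.9 in RSCs (4.14, SE 0.28, adjusted p = 0.000149). These genes respond to many other signals too, and their levels are not a measure of retinoic acid.

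The profiles most like those of the 2 members with the largest differences were sought by the Euclidean distance of log2(FPKM + 1) over the 6 samples, as a description. Nearest to Crabp1 were Cdkn1c, a cell cycle inhibitor (distance 2.98), Nnat, a small membrane protein of developing neural tissue (3.32), and Grb10, an adaptor of the insulin receptor (3.43). Cdkn1c had 602, 649 and 505 FPKM in SCPs and 10.5, 3.29 and 7.94 in RSCs. Nearest to Aldh1a1 were Itga7, a laminin receptor subunit (0.70), Thbs2, a matricellular protein (0.75), and Ramp1, a subunit of neuropeptide receptors (0.83). Itga7 had 1.02, 1.57 and 1.27 FPKM in SCPs and 173, 202 and 166 in RSCs. The distances of the Aldh1a1 set were smaller than those of the Crabp1 set.

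All samples carried Sox10, a transcription factor of the Schwann cell lineage, at 175 to 181 FPKM in SCPs and 143 to 149 in RSCs. S100b, a marker of later Schwann cells, was at 3.21 to 19.3 and 782 to 924 FPKM. Summed markers of most other cells lay apart between the groups, while the endothelial and mural sums overlapped. The leukocyte genes summed to 4.80 to 21.9 FPKM in SCPs and 1896 to 2255 in RSCs. The perineurial genes summed to 27.2 to 37.1 and 75.6 to 89.6 FPKM. Slc2a1 held 61.9 to 76.8 FPKM of that RSC sum, and Krt19 was higher in SCPs. The endothelial and mural genes summed to 83.1 to 253 and 103 to 168 FPKM. Rgs5 of that list was listed at 0 in all RSC samples. With unnamed transcripts Rgs5 stood at 4.98 to 9.99 FPKM in SCPs and 75.3 to 98.4 in RSCs, while Pdgfrb was higher in SCPs. The skeletal muscle genes summed to 41.2 to 85.5 FPKM in SCPs and 25.3 to 31.0 in RSCs. Des held 23.0 to 28.0 FPKM of the RSC sum, and Myod1, Myf5 and Pax7 were listed at 0 in all RSC samples. The cartilage genes summed to 62.0 to 110.0 FPKM in SCPs and 5.42 to 7.42 in RSCs, where Sox9 held 5.13 to 6.94. The neuron genes summed to 29.1 to 52.8 FPKM in SCPs and 18.5 to 24.3 in RSCs, where Tubb3 held 17.3 to 23.7. The erythroid genes summed to 16657 to 74543 FPKM in SCPs and 0 to 1.43 in RSCs. The part of other cells in the levels of the retinoid genes was not tested. Unnamed transcripts held 26.1% to 31.9% of all FPKM in SCPs and 18.6% to 23.4% in RSCs, and depth relative to the deepest sample, SCP replicate 2, ranged from 0.88 to 1.00 for SCPs and from 0.79 to 0.84 for RSCs.

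**Figure D5:**
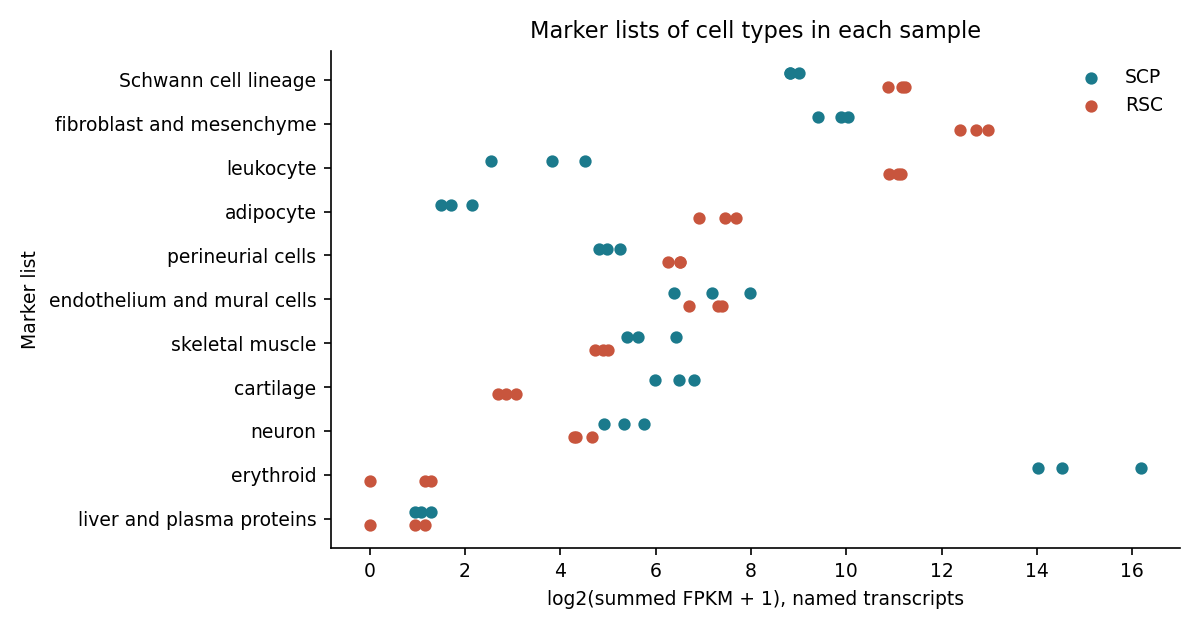
Summed FPKM of 11 lists of cell type markers in each sample, as log2(sum + 1) of named transcripts, for SCP (teal) and RSC (red) samples. Leukocyte, adipocyte and fibroblast lists lie higher in all 3 RSC samples, erythroid and cartilage lists lie higher in all 3 SCP samples, and the endothelial and mural list overlaps.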

How the data were processed

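The authors sequenced stranded mRNA libraries of 3 SCP and 3 RSC samples from paired ends. Per the labels, the submitters' processing notes name FastQC 0.11.2, TopHat2 2.1.0, Cufflinks 2.2.1 and the rn6 build. The values deposited for each sample are the FPKM of each transcript from Cufflinks, with an interval and a status. The deposited read coverage of each transcript is a signal used here only for relative depth. Replicates were not pooled. The absolute depth is unknown, so no counting interval can be given, and a 0 can be a failed estimate.

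Transcripts whose names had become dates, 77 in each sample, were left out. FPKM of named transcripts was summed by symbol. The 13003 genes that averaged 1 FPKM or more were fitted on log2(FPKM + 1) in limma (version 3.58.1, R version 4.3.3), with a variance trend, two-sided, and with Benjamini-Hochberg adjustment over all of them. Calls used the thresholds of the study, an unadjusted p under 0.01 and, where said, a 4-fold difference. No count test was run, since the tables hold no counts. Unnamed transcripts were added, as an alternative, to the gene of the same locus that they overlap most. Counting them for every gene they overlap was an alternative chosen after seeing the data.

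The members, the gene lists and the tests were chosen with earlier results of these data known. Genes named are the members, every other pathway gene that passed, the 2 co-regulators and responsive genes with the largest change in each direction among those that passed, marker genes, and the 3 nearest profiles of the members with the largest differences. Fabp5, Lipe, Lrat, Cyp1b1, Cyp26a1, Cyp26c1, Rarg, Rxra, Rdh5, Rdh13 and the Hox genes were named outside this rule, after their values were seen. Some genes of the lists are not reported here and were left out of their counts and sums. Promoter sequences are those of RefSeq, build GRCr8. The remaining alternatives concerned scaling (quantile, median of ratios, same sum), the pseudocount (0.1), the filter (none, or 5 FPKM), the variance trend, a replicate block, adjusted p, zeros, the highest transcript of a gene, and leaving out 1 sample at a time.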

Additional observations from a re-analysis of the deposited data

Results flagged for a closer look

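Signal was present in unnamed transcripts, which the summed levels do not use, at 5 retinoid loci whose named transcript was listed at 0. At Aldh1a3 this held for 5 samples, with up to 36.2 FPKM, and at Cyp1b1 for all 6, with up to 30.3 FPKM. At Rxra it held for 4 samples, with up to 24.8 FPKM. At Stra6 it held for RSC replicates 1 and 2, with up to 4.17 FPKM, and at Rdh5 for 1 sample, RSC replicate 2, with 1.41 FPKM. There are no control samples for this signal, and the named value of 0 at these loci therefore does not show that the gene was silent.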

How the results depend on the processing

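Of 158 values of the members under the alternatives, 150 kept their direction and lay within the spread between replicates, 5 moved by more than that spread and 3 reversed. Many of the 150 could not move. The filter, the variance trend and the replicate block leave a log2 difference unchanged, as does the highest transcript for the 8 members with 1 reference transcript. Leaving out zeros or adding unnamed transcripts changes nothing for members without them. The 150 is therefore not a count of independent checks. The spread was wide for uneven members, so that Cyp26b1 ranged from 0.22 to 1.08 and Aldh1a2 from -1.24 to -0.47 within it. The reversals were all of Rarb, at 0.34 with a pseudocount of 0.1 and between 0.15 and 0.18 without SCP replicate 2 or 1. With a sample left out Rarb ranged from -1.51 to 0.18. Of 282 values of other named genes none reversed and 31 lost their call. These genes were chosen because the main fit called them, and several alternatives leave their log2 difference unchanged too. The 282 is therefore not a count of independent checks either. Genes named outside the rule above, such as Rxra and Rdh13, were not among them. Adding the unnamed transcripts raised the genes called at p under 0.01 from 5268 to 8040, the co-regulators higher in SCPs from 2 to 9, the responsive genes higher in SCPs from 4 to 8 and the other pathway genes higher in SCPs from 5 to 8. The last numbered 3 with median-of-ratios or same-sum scaling or adjusted p, and 3 to 5 with a sample left out (3 without SCP replicate 1, RSC replicate 2 or RSC replicate 3). The co-regulators numbered 1 with median-of-ratios or same-sum scaling, the highest transcript or adjusted p, and 1 to 3 with a sample left out. The other pathway genes higher in RSCs numbered 3 to 5 with a sample left out, 3 without RSC replicate 3, against 5. Whether the replicate numbers pair the samples is not stated. Deviations of same-numbered samples correlated at -0.0049 to 0.0435 and those of differently numbered samples at -0.0476 to 0.0225, which does not settle it. With a replicate block 4275 genes were called, with 5 other pathway genes higher in SCPs and 4 in RSCs. With 3 samples per group of unknown absolute depth, small differences such as that of Crabp2 rest on the spread of these samples alone. The difference of Aldh1a3 could not be computed from named transcripts without SCP replicate 2, where the gene falls under the filter.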
